A study of Homo sapiens with 24 samples.

Results

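The LINC and antisense RNA genes of PANC1 cells were described here, that is, the rows of the deposited count table whose symbol is LINC and a number, or ends in -AS and a digit, and that had at least 1 count in every library. This rule gave 110 genes, 37 LINC and 73 antisense, of the 12058 genes with no zero count and of 54583 genes in the table. PANC1 cells derive from a human pancreatic duct carcinoma and have been kept in culture as an established line. Plates received DMSO as the vehicle, 40 µM CID661578 or 5 µM cercosporamide for 6 h. The labels group both compounds under MNK2 inhibitors, of which cercosporamide blocks the kinase activity, whereas the study describes CID661578 as acting on MNK2 without blocking that activity. Each treatment had 4 replicates, and from each of the 12 plates both total cytosolic RNA and RNA from pooled gradient fractions with more than 3 ribosomes (polysome RNA) were sequenced, which gave 24 libraries. The doses of the compounds differ, so dose and compound cannot be told apart, and all values come from 1 cell line. The labels do not say whether the 4 replicates were grown at separate times, so the p-values measure the spread between these samples.

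Long non-coding RNAs are transcribed, spliced and often polyadenylated like mRNAs but hold no long conserved reading frame. LINC symbols are given to such genes that lie between coding genes, and -AS symbols to those on the strand opposite a named gene. Many stay in the nucleus, whereas others reach the cytosol, where some associate with ribosomes and a few have been reported to yield small proteins. MNK kinases phosphorylate the cap-binding factor eIF4E, and CID661578 and cercosporamide were used to ask which RNAs change in polysome association when MNK2 is targeted.

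Most genes of these classes had a zero count in at least 1 library, and the reason was not tested. Of 3654 LINC and antisense symbols in the table, 2152 had no count in any library, and 3.01% had no zero, against 23.46% of all other symbols. The 110 that did had a median of 45.3 counts per library on average, with a range from 5.71 to 430.2, whereas the median over all genes tested was 153.1. One library, the polysome RNA of cercosporamide replicate 4, held 1592459 reads against 9268041 to 12184749 in the others. In it the members had a median of 3 counts, and 98 of 110 had fewer than 10, so membership required a count in this library. Leaving that library out would have kept 175 symbols. KRT8 and KRT19, keratins of duct epithelium, lay at 2750 to 13600 and 698 to 4750 CPM. CPM are read counts scaled to the library total, which was unadjusted for these markers and TMM-adjusted for the members. The insulin, trypsinogen, leukocyte and albumin markers INS, PRSS1, PTPRC and ALB were at 0 in all libraries. The endocrine, acinar and endothelial markers GCG, CPA1 and PECAM1 reached at most 0.269, 0.29 and 0.514 CPM. The nuclear RNAs NEAT1 and MALAT1 took 0.000162% and 0.00282% of the counts in total RNA with DMSO, against 0.0969% for the 110 members together. In polysome RNA with DMSO they took 0.000284% and 0.00115%, so NEAT1 had the larger share there and MALAT1 the smaller. KCNQ1OT1, also nuclear, took 2.31e-06% in total and 8.77e-05% in polysome RNA with DMSO.

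In the annotation, 108 members matched a GENCODE gene, of which 100 were typed as lncRNA, 6 as transcribed unprocessed pseudogenes and 2 as transcribed unitary pseudogenes. LINC00673 and LINC01137 had no match there. The longest transcript of a matched member had a median of 2957 bases and 3 exons, and its longest reading frame from ATG to a stop codon had a median of 90 codons, with a range from 14 to 268. Counting ignored the strand and left out reads that overlapped exons of more than 1 gene, so a read in an antisense exon that overlaps no exon of the other strand was counted for the antisense gene whichever strand it came from. For 27 members more than 50% of the exonic bases lay inside a coding gene on the other strand.

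The starts of the longest reading frames of 8 members are shown because these members carry the results on polysome association, or have been reported to yield a small protein. The sequences come from GENCODE v44 transcripts on hg38, read 5′ to 3′ on the strand of the gene, and the capitals mark the ATG that opens the frame. KANSL1-AS1 and LINC00941 were the antisense and the LINC gene most depleted from polysome RNA, and LINC02802 lost polysome association with cercosporamide. MRPL20-AS1 was abundant and not called depleted with DMSO. THAP9-AS1 gained polysome association with cercosporamide, a call lost in some alternative fits. HOXB-AS3, LINC00665 and AFAP1-AS1 have been reported to yield a small protein, and whether the frames shown are the reported ones was not checked.
KANSL1-AS1: gcctcagtcATGgctcctcgccgtggccga
LINC00941: tactggaggATGagccatcacctggagcag
LINC02802: agaactggcATGactctacaccctctctcc
MRPL20-AS1: ccacagggcATGtctgaggtcagccccgag
THAP9-AS1: ggccaaagaATGgtaacgtgcttatcatgg
HOXB-AS3: acgggggacATGgacaaaatgagacgcgac
LINC00665: tatggggtgATGcatgcagataaatgttta
AFAP1-AS1: actgggcagATGagaacaccaatcccaaga

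Each of these windows lies within 1 exon. They stand at chr17:46193595-46193624 (plus strand, exon 1) for KANSL1-AS1, chr12:30801748-30801777 (plus strand, exon 5) for LINC00941, chr1:144227260-144227289 (minus strand, exon 3) for LINC02802, chr1:1401700-1401729 (plus strand, exon 1) for MRPL20-AS1 and chr4:82894129-82894158 (minus strand, exon 5) for THAP9-AS1. The others stand at chr17:48596054-48596083 (plus strand, exon 1) for HOXB-AS3, chr19:36315695-36315724 (minus strand, exon 5) for LINC00665 and chr4:7773520-7773549 (plus strand, exon 2) for AFAP1-AS1. The frames ran for 58 codons in KANSL1-AS1, 57 in LINC00941, 36 in LINC02802, 82 in MRPL20-AS1, 87 in THAP9-AS1, 105 in HOXB-AS3, 120 in LINC00665 and 195 in AFAP1-AS1. The frame opened 37 bases into the KANSL1-AS1 transcript of 1203 bases but 2192 bases into the MRPL20-AS1 transcript of 2529 bases.

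The first comparison asked how much of these RNAs sat on polysomes in cells with DMSO. Nearly all were scarcer in polysome RNA than in total RNA, and the depletion held for LINC and antisense genes and with each treatment. The members' summed share of the counts was 0.0969% ± 0.00654 (SD, n = 4) in total RNA and 0.0457% ± 0.00667 in polysome RNA with DMSO. The ratio of polysome to total share was 0.467, 0.565, 0.418 and 0.436 in the 4 plates. In edgeR's quasi-likelihood test, with a call at a Benjamini-Hochberg adjusted p under 0.15 over all genes tested and a change over 1.2-fold, 90 of 110 members were lower in polysome than in total RNA and 0 were higher. Over all genes tested, 29.6% were called lower and 26.4% were called higher. None of the members was higher at an unadjusted p under 0.05 either, against 2819 of 12058 genes tested. DESeq2 also called 0 members higher, against 3335 genes. The median log2 change of the members was -1.33, a 2.52-fold depletion, against -0.0145 over all genes tested. As these are bulk samples, a change in the share of cells that hold an RNA and a change in the level per cell cannot be told apart.

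The depletion was of similar size in both classes. Of the LINC genes 32 of 37 were called lower, with a median log2 change of -1.31, and of the antisense genes 58 of 73, with a median of -1.35. In 88 of 110 members the polysome value lay below the total value in all 4 plates, as it did in 29.3% of all genes tested. In 74 members all 4 polysome libraries lay below all 4 total libraries, against 17.2% of all genes tested. Other non-coding classes in the same fit gave comparable values: 14 of 22 divergent transcripts (symbols ending in -DT) were lower with a median of -1.41, 17 of 18 snoRNA host genes with a median of -1.57, and 7 of 9 microRNA host genes with a median of -1.91. Among the 2890 other genes with mean counts within the members' quartile range, 26.2 to 88.5 counts per library, 21.6% were lower and the median was 0.0899.

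**Figure D1:**
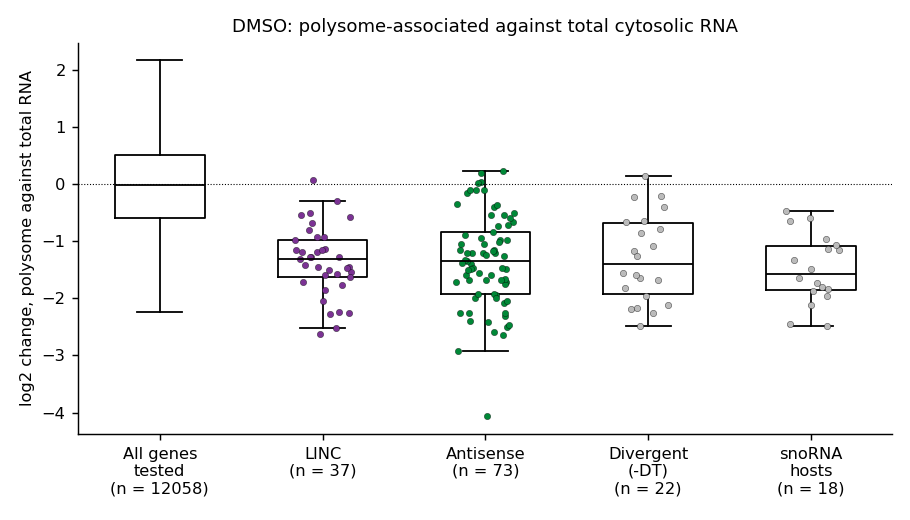
Log2 change in polysome against total RNA with DMSO for all genes tested (box only), LINC members, antisense members, divergent transcripts and snoRNA host genes. Points are genes, boxes span the quartiles with the median as a line, whiskers reach 1.5 interquartile ranges and points beyond them are not drawn for all genes tested. The medians are -1.31 for LINC and -1.35 for antisense members against -0.0145 for all genes tested.

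Depletion was found in abundant and in scarce members. The 55 members with a mean log2 CPM above the median had a median change of -1.42, and the other 55 had -1.27. LINC00673 (chr17:72403322-72592804, RefSeq GRCh38.p14), a non-coding RNA studied in pancreatic cancer, was the most abundant LINC gene. It lay at 56.9, 53.5, 43.2 and 43.4 CPM in total RNA and 23.4, 28.2, 26.3 and 21.9 CPM in polysome RNA of DMSO replicates 1 to 4. The fractions did not overlap, and the log2 change was -0.97 ± 0.187 (SE), adjusted p = 0.000181. KRT10-AS1 (chr17:40819145-40836274), which carried the symbol TMEM99 before and has a frame of 258 codons, lay at 61.9, 62.4, 63.8 and 42.4 CPM in total and 27.8, 25.6, 19.0 and 18.4 CPM in polysome RNA, a log2 change of -1.35 ± 0.188, adjusted p = 3.82e-06. OIP5-AS1, also known as Cyrano and as a partner of microRNAs, lay at 30, 34.2, 35.0 and 19.8 CPM in total and 8.49, 10.1, 4.29 and 6.29 CPM in polysome RNA, and its log2 change was -2.05 ± 0.238. Of the 6 LINC and the 6 antisense genes with the highest mean log2 CPM, 11 were called lower. The exception was MRPL20-AS1 (chr1:1399530-1402046), beside the gene of a mitochondrial ribosomal protein, at 24.8, 16.2, 41.6 and 27.2 CPM in total and 18.9, 22.6, 37.5 and 21.6 CPM in polysome RNA. Its ranges overlapped widely, with a log2 change of -0.10 ± 0.203 and adjusted p = 0.729. The sign of this value turned to 0.18 with library scaling within each fraction and to 0.027 without the filter on zero counts, and with the GC trend removed the gene was called lower, at -0.34 and adjusted p = 0.147.

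KANSL1-AS1 (chr17:46193573-46196723) was the most depleted member. It lies within KANSL1, which encodes a subunit of a histone acetyltransferase complex, on the other strand, and 100% of its exonic bases are inside that gene's span. It had 19.5, 15.6, 7.02 and 8.57 CPM in total RNA and 0.849, 0.575, 1.21 and 0.236 CPM in polysome RNA. No polysome value exceeded 1.21 CPM, and the log2 change was -4.06 ± 0.417, adjusted p = 4.62e-08. ZFPM2-AS1, NUTM2A-AS1 and PRR34-AS1 followed among antisense genes, at log2 changes of -2.93 ± 0.341, -2.64 ± 0.277 and -2.58 ± 0.352. Among LINC genes LINC00941 (chr12:30795681-30802711), which has been studied in pancreatic cancer, was lowest. It went from 10.7, 15.8, 27.6 and 21.3 CPM in total to 2.36, 2.96, 3.55 and 2.75 CPM in polysome RNA. The polysome values were close together while total RNA varied, and the log2 change was -2.62 ± 0.263, adjusted p = 3.14e-08. LINC02482, LINC02802 and LINC02697 came next at -2.51 ± 0.398, -2.28 ± 0.257 and -2.26 ± 0.302.

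In 20 members no call was made. The estimates above 0 were those of HSD17B1-AS1 at 0.24 ± 0.339, ZBTB11-AS1 at 0.20 ± 0.410, LINC02693 at 0.076 ± 0.302, WAC-AS1 at 0.031 ± 0.235 and NNT-AS1 at 0.027 ± 0.395, genes chosen after their values were seen. Of the 13 listed genes that have been reported to yield a small protein, 4 were members, and 3 of these were lower. LINC01116 changed by -1.71 ± 0.314, LINC00665 by -1.77 ± 0.319 and HOXB-AS3, an antisense RNA of the HOXB cluster, by -1.46 ± 0.438. AFAP1-AS1 was not called, at 4.88, 1.73, 7.98 and 11.7 CPM in total and 3.59, 3.45, 4.66 and 5.90 CPM in polysome RNA, a log2 change of -0.37 ± 0.330. In GENCODE 42.2% of its exonic bases overlap exons on the other strand, against 30.1% for HOXB-AS3. Counting used RefSeq genes, and which reads were left out for overlap there was not determined. Of the 33 genes listed as studied in cancer or the pancreas, 15 were members and 14 were lower, with a median of -1.46. LINC00261, a neighbour of the endoderm factor gene FOXA2, changed by -1.44 ± 0.467, and EPB41L4A-AS1, which hosts a snoRNA, by -2.26 ± 0.300. The counts of both lists lie near that of all members.

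**Figure D2:**
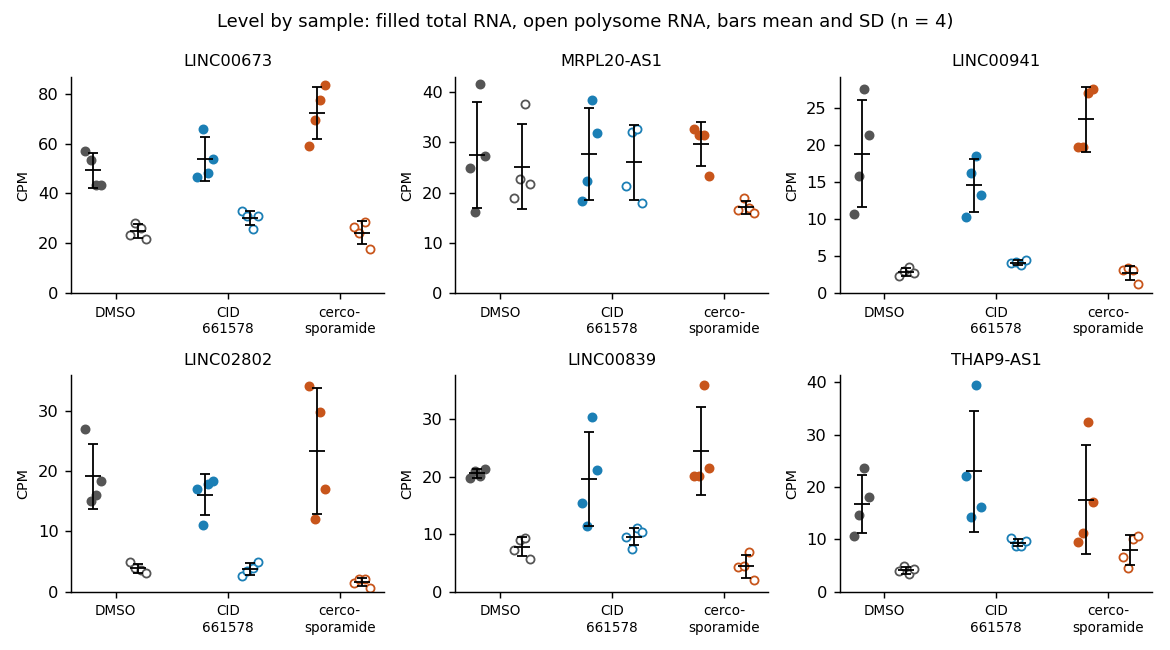
CPM in each library for LINC00673, MRPL20-AS1, LINC00941, LINC02802, LINC00839 and THAP9-AS1, filled for total and open for polysome RNA, with bars for the mean and SD (n = 4). Total and polysome RNA overlap for MRPL20-AS1 with DMSO, whereas LINC00941 and LINC02802 stay below 5 CPM in polysome RNA with every treatment.

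The antisense genes were set beside their sense partners, 54 of which were among the genes tested. In 49 of 54 pairs the antisense gene had the lower polysome to total change. The antisense genes had a median of -1.37 and the partners a median of 0.23. Of the antisense genes in pairs, 44 were lower and 0 higher, whereas 12 partners were lower and 17 higher. In 14 pairs the antisense gene was lower and the partner higher. KANSL1-AS1 was at -4.06 and KANSL1 at 0.64, and KDM4A-AS1 was at -1.5 while KDM4A, a histone demethylase gene, was at 1.41. PXN-AS1 was at -1.06 and PXN, which encodes the focal adhesion adaptor paxillin, at 0.90. KRT10-AS1 and KRT10, a keratin gene, were both lower, at -1.35 and -1.36. The Spearman correlation across the 54 pairs was -0.126, from genes that share all 24 libraries.

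**Figure D3:**
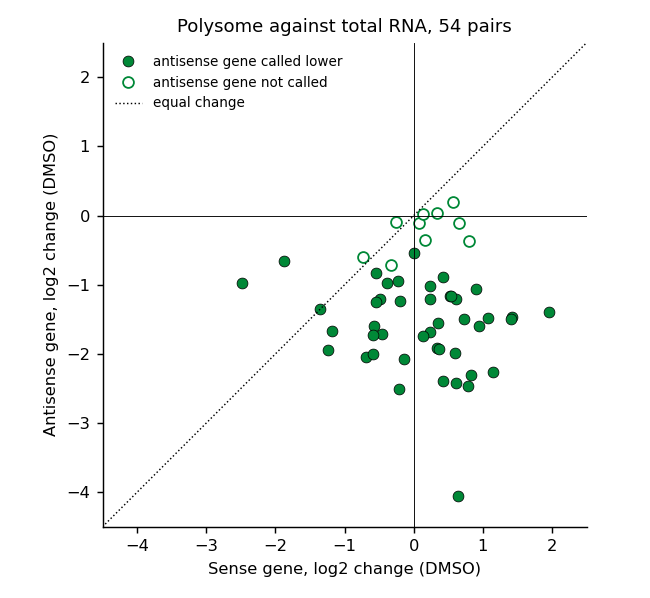
Log2 change in polysome against total RNA with DMSO of 54 antisense genes (vertical) and of their sense partners (horizontal), filled where the antisense gene was called lower, with a dotted line of equal change. In 49 pairs the point lies below the line, and the antisense values do not follow those of the partners.

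Features of the transcript sorted the members little in this comparison with DMSO. Members with a GC content at or below the median of 48.1% had a median change of -1.57, and those above it -1.21. The Spearman correlation across 108 members was 0.284 for GC content, 0.233 for the length of the longest reading frame, -0.226 for the number of exons and 0.112 for transcript length. Across 11647 genes tested the corresponding values were 0.224 for GC content and 0.411 for transcript length. Of 43 members with a frame above 100 codons, 33 were lower with a median of -1.25, and of 65 members with a shorter or equal frame, 55 were lower with a median of -1.47. Where more than 25% of the exonic bases overlapped exons on the other strand, 10 of 15 were lower with a median of -1.06, against 78 of 93 and -1.38 in the rest. All these correlations are across genes of the same libraries and are descriptions.

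The same comparison in plates with a compound, added after the data were seen, used other libraries than the DMSO plates. With CID661578, 87 members were lower, 0 were higher and the median was -1.14, where 27.2% of all genes tested were called lower. With cercosporamide, 95 were lower, 0 were higher and the median was -1.94, where 31.6% of all genes tested were called lower. In 76 members the call was made with all 3 treatments, and in 8 with none. All 4 polysome libraries lay below all 4 total libraries in 56 members with CID661578, against 15.1% of all genes tested, and in 80 members with cercosporamide, against 20.4%. Across the 110 members the Pearson correlation of the change was 0.703 between DMSO and CID661578 plates, 0.740 between DMSO and cercosporamide plates and 0.654 between the plates of the compounds. The summed share in polysome RNA was 0.0513% ± 0.00403 (n = 4) with CID661578 and 0.0339% ± 0.00286 with cercosporamide.

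Translational efficiency (TE) is here the change in polysome RNA beyond that in total RNA, relative to DMSO, and for a non-coding RNA it stands for polysome association only. With cercosporamide TE fell for 25 members, 13 LINC and 12 antisense, and rose for 1. Over all genes tested, 12.6% were called lower and 15.8% higher. The median log2 change in TE was -0.58 over the members, -0.76 over the LINC and -0.55 over the antisense genes, against -0.000503 over all genes tested. Of the 2890 other genes in the members' count range, 6.71% were lower and the median was 0.0308. Members with a GC content above 48.1% had a median TE change of -0.727, and those at or below it -0.41. The Spearman correlation of this change with GC content was -0.205 across 108 members and -0.52 across 11647 genes tested, as a description. With the GC trend removed, 22 members and 1387 of 12058 genes tested were lower, and the members' median was -0.558. Medians over the members were -0.363, -0.65, -0.437 and -0.401 in replicates 1 to 4, so the direction was the same in each. The same fit gave 13 of 18 snoRNA host genes as lower with a median of -0.84, and 5 of 22 divergent transcripts with a median of -0.66. The number of members with lower TE was 8 without replicate 1 and 6 without replicate 2, where 1013 and 768 of 12058 genes tested were lower. In neither of these fits did the share of members called lower exceed that of all genes, while the members' medians were -0.579 and -0.531. Leaving out only the shallow library gave 25 members with a median of -0.68, where 1379 genes were lower.

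LINC02802 (chr1:144207473-144250297) had the smallest adjusted p. It lay at 4.91, 3.94, 3.55 and 3.07 CPM in polysome RNA with DMSO and 1.39, 2.12, 2.08 and 0.662 CPM with cercosporamide. These groups did not overlap, whereas total RNA, at 27.0, 15.1, 16.1 and 18.3 CPM with DMSO and 34.2, 12.0, 29.9 and 17.1 CPM with cercosporamide, did. TE changed by -1.44 ± 0.396, adjusted p = 0.0148, and fell in 4 of 4 replicates. LINC00839 (chr10:42475491-42495337) lay at 7.17, 8.95, 9.42 and 5.74 CPM in polysome RNA with DMSO and 4.25, 4.49, 6.89 and 1.99 CPM with cercosporamide, with a TE change of -1.03 ± 0.342, adjusted p = 0.0399. Its groups overlapped in polysome RNA. LINC02482 changed in TE by -1.72 ± 0.629, LINC01123 by -1.36 ± 0.489 and PXN-AS1 by -1.34 ± 0.482, each with an adjusted p over 0.05 and under 0.15. MRPL20-AS1, not called depleted with DMSO, lay at 32.6, 31.5, 31.4 and 23.2 CPM in total and 16.6, 18.9, 17 and 15.9 CPM in polysome RNA with cercosporamide. The fractions did not overlap there, and TE fell by 0.73 with an SE of 0.295, adjusted p = 0.0940. Of the 4 members reported to yield a small protein none was called for TE, and of the 15 studied in cancer or the pancreas 3 were lower and 1 was higher. Among the 54 antisense and sense pairs the antisense gene had the lower TE change in 38, with medians of -0.573 for antisense genes and -0.168 for partners.

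The gene with higher TE was THAP9-AS1 (chr4:82893452-82900916), which has been studied in pancreatic cancer. It lay at 3.87, 4.84, 3.36 and 4.25 CPM in polysome RNA with DMSO, 6.71, 4.57, 10.1 and 10.6 CPM with cercosporamide and 10.3, 8.80, 8.79 and 9.70 CPM with CID661578. The CID661578 values lay above all DMSO values, while replicate 2 with cercosporamide did not. Total RNA was at 10.6, 14.7, 23.7 and 18 CPM with DMSO and 9.53, 11.2, 32.4 and 17.2 CPM with cercosporamide. TE changed by 0.94 ± 0.344 with cercosporamide, adjusted p = 0.0620, and the call was lost without replicate 1, 3 or 4, with the GC trend removed and without the filter on zero counts, at adjusted p-values of 0.160 to 0.201.

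**Figure D4:**
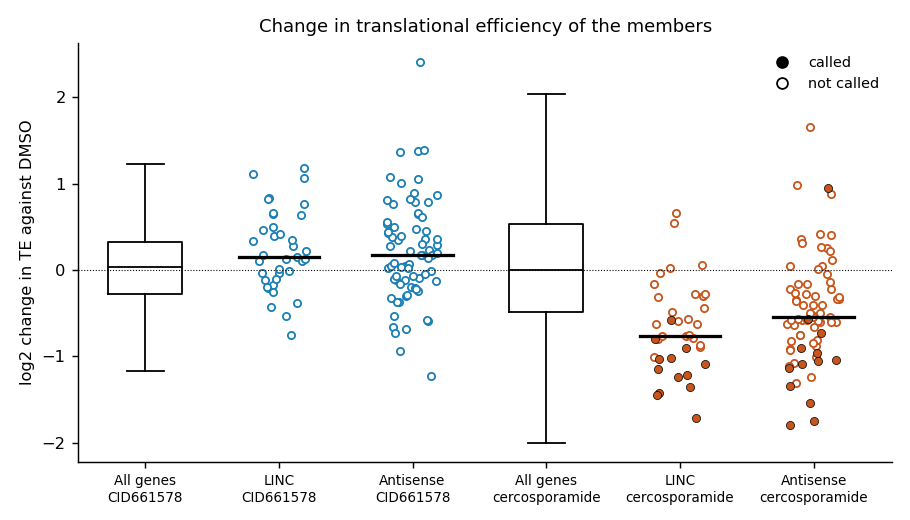
Log2 change in TE against DMSO for all genes tested (box with quartiles and median, outlying points not drawn) and for each LINC and antisense member, filled where called, with bars at the median. The medians lie at 0.15 and 0.18 with CID661578 and at -0.76 and -0.55 with cercosporamide, and both compounds share the DMSO libraries.

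Of the 25 genes with lower TE with cercosporamide, the change was larger in size in polysome RNA for 16 and in total RNA for 9. This split compares the estimates alone, without their SE, and does not test where the fall arose. In polysome RNA itself 25 members were lower with cercosporamide and 4 were higher, where 13.8% of all genes tested were called lower and 18.3% higher. Of the 25 genes with lower TE, 12 were also called lower in polysome RNA, and the total RNA estimate was above 0 in 22. The members lower in polysome RNA with the smallest p were LINC00662 at -1.30 ± 0.320, LINC00680 at -1.43 ± 0.386, MAPKAPK5-AS1 at -0.83 ± 0.247 and LINC00963 at -1.27 ± 0.385. LINC00662 lay at 3.21, 5.50, 9.24 and 4.72 CPM with DMSO and 1.23, 1.47, 5.89 and 1.32 CPM with cercosporamide, lower in each replicate though replicate 3 was high in both groups. Without the term for the replicate its adjusted p was 0.185. The members higher in polysome RNA were LOXL1-AS1 at 1.36 ± 0.514, ZFPM2-AS1 at 1.16 ± 0.381, MAP3K20-AS1 at 0.92 ± 0.432 and THAP9-AS1 at 0.88 ± 0.284. The number of members called in polysome RNA was 15 without replicate 1, 12 of them lower, and 9 without replicate 2, 7 of them lower. In these fits 1295 and 962 of 12058 genes tested were lower, and 1894 and 1689 were higher. The share of members called lower was thus near or below that of all genes there. Leaving out the shallow library gave 24 members called, and 16 were called without the term for the replicate. Of these, 21 and 13 were lower, where 1533 and 677 of 12058 genes tested were lower and 2037 and 1244 higher.

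In total RNA 1 member was called with cercosporamide, where 0.381% of all genes tested were called. LINC01843 (chr5:134506552-134509230) rose from 18.5, 28.3, 14.4 and 9.45 CPM with DMSO to 39.9, 63.4, 35.5 and 27.6 CPM, higher in each replicate, while DMSO replicate 2 lay above cercosporamide replicate 4. The log2 change was 1.27 ± 0.224, adjusted p = 0.0592, and without the term for the replicate it was 1.24, adjusted p = 0.813. Its polysome RNA was at 5.95, 11.0, 3.45 and 4.25 CPM with DMSO and 5.15, 12.3, 8.97 and 4.63 CPM with cercosporamide, and its TE changed by -0.90 ± 0.335, adjusted p = 0.0660. The call in total RNA was lost without replicate 1, 3 or 4.

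With CID661578 no member was called for TE, where 0.207% of all genes tested were called. edgeR gave 0 calls, DESeq2 gave 0, and an analysis of partial variance gave 2 higher, where 23 of 12058 genes tested were higher. At an unadjusted p under 0.05 in edgeR, 11 members were higher and 0 lower, against 593 and 476 of 12058 genes tested. The median log2 change was 0.17, with 70 estimates above 0 and 40 below, and the median SE was 0.463. The smallest p belonged to ZFPM2-AS1, at 1.38 ± 0.449 and adjusted p = 0.487, and to OTUD6B-AS1, at 1.01 ± 0.348 and adjusted p = 0.489. A change in a single member of the size of the median with cercosporamide would thus lie within 2 of these SE of 0. In total RNA 0 members were called with CID661578, where 0.448% of all genes tested were called. At an unadjusted p under 0.05 in edgeR, 2 members were higher and 7 lower, against 440 and 424 of 12058 genes tested. DESeq2 called 2 members lower in total RNA, where 62 of 12058 genes tested were lower.

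In polysome RNA CID661578 raised 5 members and lowered 0, where 6.16% of all genes tested were called higher and 3.96% lower, so the 4.55% of the members called higher lies near the share of all genes. ZFPM2-AS1 went from 0.566, 0.903, 1.49 and 0.787 CPM to 2.19, 2.99, 5.48 and 1.92 CPM. The groups did not overlap, and the log2 change was 1.71 ± 0.349, adjusted p = 0.00839. MAP3K20-AS1 went from 0.378, 0.575, 0.746 and 0.551 CPM to 2.19, 1.37, 2.66 and 2.1 CPM, without overlap, and changed by 1.86 ± 0.382, adjusted p = 0.00854. THAP9-AS1 changed by 1.19 ± 0.270, LINC00662 by 0.84 ± 0.274 and KANSL1-AS1 by 1.34 ± 0.502. The call of LINC00662 was lost without the term for the replicate, at an adjusted p of 0.574. KANSL1-AS1 lay at 0.964, 2.26, 1.69 and 2.62 CPM with CID661578, still far below its total RNA at 10.3, 14.1, 16.5 and 7.33 CPM. The number called was 3 without replicate 2, without replicate 3 and without the term for the replicate. In these fits 603, 251 and 33 of 12058 genes tested were higher.

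The TE changes of the compounds were then compared directly, at 40 µM and 5 µM and against the same DMSO libraries. The change was higher with CID661578 than with cercosporamide in 26 members and lower in 0, where 7.93% of all genes tested were called higher and 7.57% lower. The median difference was 0.73 on the log2 scale, against -0.0305 over all genes tested, and 97 estimates were above 0. Of the 26 members, 15 were among those with lower TE with cercosporamide. The smallest p belonged to KDM4A-AS1, at 2.62 ± 0.539 and adjusted p = 0.00857, and LINC00839, at 1.5 ± 0.341 and adjusted p = 0.0150. KDM4A-AS1 lay in polysome RNA at 1.79, 1.56, 1.77 and 2.52 CPM with DMSO, 2.63, 3.15, 2.02 and 3.5 CPM with CID661578 and 0.654, 0.653, 0.725 and 2.65 CPM with cercosporamide. The high cercosporamide value is that of the shallow library. LINC00839 lay at 9.47, 7.51, 11.0 and 10.3 CPM in polysome RNA with CID661578, above all 4 values with cercosporamide. For FGD5-AS1 the difference was 0.20 ± 0.383 and for THAP9-AS1 -0.13 ± 0.336, with an SE larger than the estimate in each. The number of members called was 10 without replicate 1 and 6 without replicate 2, all higher with CID661578. In these fits 276 and 221 of 12058 genes tested were called higher, and 311 and 172 lower. The share of members called higher exceeded that of all genes in both fits.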

How the data were processed

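The authors deposited raw read counts per RefSeq gene for 24 Smart-seq2 libraries of PANC1 cells, aligned to hg38 and counted without strand. Counts were tested with edgeR's quasi-likelihood test (version 4.0.16, R 4.3.3) after TMM scaling over all libraries, on the 12058 genes without a zero count. TE and polysome against total RNA came from 1 model with a term per plate, a polysome term per replicate and a polysome term per compound. Changes within a fraction came from models with replicate and treatment. The replicate term follows the study's methods, which name it as a batch, and same-numbered libraries deviated together (r above 0.1) in 13 of 16 pairs. Benjamini-Hochberg adjusted p under 0.15 with a change over 1.2-fold was called, and SE is the log2 change divided by the root of F. CPM values of members are TMM-scaled, and those of the cell type markers use the unscaled library total. The fit was tested on simulated counts with known changes. Alternatives were DESeq2 1.42.0, other scalings and filters, no replicate block, GC trend removal, partial variance and leaving out replicates. Genes are named by abundance, size of change or p within each comparison, and by lists of small proteins and cancer. The members and lists were chosen with earlier results of these data known. Transcript features came from GENCODE v44, gene positions from RefSeq GRCh38.p14. Libraries held 1592459 to 12184749 reads, so precision is limited for low counts.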

Additional observations from a re-analysis of the deposited data

Results flagged for a closer look

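In 20 of 240 groups of 4 samples examined, from the named members and the summed shares, 1 sample stood apart from the other 3 by Dixon's test at the 95% level, where chance flags about 5% of groups, or 1 in 20. The high samples in total RNA were LINC01843 with CID661578 (33.9 CPM), LINC00839 (35.9), KRT10-AS1 (104) and LINC00662 (28.0) with cercosporamide, OTUD6B-AS1 with DMSO (64.0) and LINC00680 with CID661578 (19.1). The low samples in total RNA were KRT10-AS1 (42.4) and HOXB-AS3 (2.49) with DMSO, and MRPL20-AS1 (23.2) and NUTM2A-AS1 (17.2) with cercosporamide. The high samples in polysome RNA were KRT10-AS1 (24.7), LINC00261 (1.4) and LINC00857 (9.75) with CID661578, LINC00662 (5.89) and KDM4A-AS1 (2.65) with cercosporamide and LINC00680 with DMSO (9.69). The low samples in polysome RNA were LINC01184 (1.99), OIP5-AS1 (2.61) and LINC00941 (1.32) with cercosporamide and MAPKAPK5-AS1 with DMSO (7.71). The values of LINC01184, LINC00941 and KDM4A-AS1 are those of the shallow polysome library of cercosporamide replicate 4.

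For 18 named members the change in TE differed between CID661578 and cercosporamide in the test of the difference with edgeR, each by a higher value with CID661578. Over all genes tested, 7.93% were called higher and 7.57% lower in that test. Some members were named for this difference or for their TE change with cercosporamide, so the count is partly set by that choice. The differences on the log2 scale were 2.62 for KDM4A-AS1, 1.93 for LINC01116, 1.75 for LINC00662, 1.68 for LINC02482, 1.61 for LINC02802, 1.55 for LINC00963 and 1.5 for LINC00839. They were 1.35 for LINC00680, 1.30 for LINC01184, 1.28 for LINC02697, 1.27 for LINC00339, 1.15 for LINC00941 and 1.05 for OTUD6B-AS1. The smallest were 0.98 for OIP5-AS1, 0.84 for MAPKAPK5-AS1, 0.75 for MRPL20-AS1, 0.75 for KRT10-AS1 and 0.73 for LINC00673. The doses differ and the DMSO libraries are shared, so dose and compound cannot be told apart.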

How the results depend on the processing

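The number of members lower in polysome than total RNA with DMSO was 79 to 92 over the leave-one-out fits and 90 without the replicate block. It was 80 with TMM within each fraction, which moved the median of all genes to 0.26 and of the members to -1.06. Of 12058 genes tested, 2928 to 3605, 3477 and 2459 were lower in these fits. Of members with higher TE with cercosporamide there were 0 with the GC trend removed, at an adjusted p under 0.05 and without the filter. There were 4 by partial variance and 0 to 2 in the leave-one-out fits, where 1825 and 1044 to 1805 of 12058 genes tested were higher. Lower TE gave 3 at an adjusted p under 0.05, 16 without the filter and 6 to 25 in the leave-one-out fits. At an adjusted p under 0.05, 779 of 12058 genes tested had lower TE, a larger share than among the members. Without the filter 1523 of 28470 genes did, a smaller share than among the members. In the fit with 6 members, 768 of 12058 genes did, a share near that of the members. TE with CID661578 gave 2 higher by partial variance, where 23 of 12058 genes tested were higher. Between the compounds there were 9 at an adjusted p under 0.05, 13 by partial variance and 6 to 24 in the leave-one-out fits. All were higher with CID661578, where 411, 623 and 221 to 929 of 12058 genes tested were higher. Total RNA with CID661578 gave 2 lower with DESeq2 and 1 lower without the filter, where 62 of 12058 and 69 of 28470 genes were lower. Total RNA with cercosporamide gave 2 higher with DESeq2 and 6 higher with the GC trend removed, where 299 and 438 of 12058 genes were higher. It gave 0 at an adjusted p under 0.05, 0 without the replicate block and 0 to 1 in the leave-one-out fits. Polysome RNA with CID661578 gave 3 with DESeq2, with the GC trend removed, at an adjusted p under 0.05 and without the replicate block. It gave 3 to 5 in the leave-one-out fits. All were higher, where 831, 189, 256, 33 and 251 to 935 of 12058 genes tested were higher, in that order. Polysome RNA with cercosporamide gave 11 at an adjusted p under 0.05, of which 9 were lower, where 822 of 12058 genes tested were lower and 1472 higher. It gave 16 without the replicate block, of which 13 were lower, where 677 genes were lower and 1244 higher. The leave-one-out fits gave 9 to 24, where 962 to 1533 genes were lower and 1592 to 2037 higher. In the fit with 9 members called, 7 were lower, where 962 of 12058 genes tested were lower. A set chosen without the shallow library, added after seeing the data, held 175 genes. Of these, 1 was higher and 130 lower in polysome RNA with DMSO, and 38 had lower TE with cercosporamide. In that fit 3703 of 13202 genes tested were higher and 3631 lower with DMSO, and 1645 had lower TE with cercosporamide. MRPL20-AS1 turned to 0.18 with TMM within each fraction and 0.027 without the filter. The causes were not tested. Of 690 values of single genes under an alternative, 643 kept their direction and their side of the threshold, 42 lost the call, 3 gained one and 2 reversed. Low counts limit what a TE change of 1 member can show.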
